A study of Mus musculus with 8 samples.

Results

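The 4 Id genes of the mouse, Id1, Id2, Id3 and Id4, were compared between the limbus and the cornea. They were taken by gene symbol from the 1 table of the series, which names 23420 genes, and all 4 were present with reads in both tissues. Wild type C57BL/6J mice, 8 weeks old, gave limbal rims, the ring of tissue between cornea and sclera, and corneal buttons, the cornea inside that ring. Tissue from 16 eyes was pooled before RNA extraction, and total RNA was sequenced. Neither group carried a treatment or an altered gene. The labels number 4 samples of each tissue, but the table is built from 1 library of the cornea and 1 of the limbus. No spread between replicates was therefore available, and every interval below covers counting error only.

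Id proteins have a helix-loop-helix domain, the part with which such proteins pair, but lack the basic stretch that binds DNA. They pair with E proteins, keep these from joining tissue-specific basic helix-loop-helix (bHLH) factors, and so hold back differentiation genes that those pairs switch on. Their genes are well-known targets of bone morphogenetic protein (BMP) signaling through Smad1 and Smad5, and Id1 and Id3 are known for their expression in blood vessel endothelium as well as in stem and progenitor cells.

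The helix-loop-helix domain is the part the 4 genes share. Its coding block was taken as the stretch over which the proteins of Id2, Id3 and Id4 each align to that of Id1 without gaps. No annotated domain bounds were used. The block is shown for each gene, as 135 bases on the coding strand of GRCm38 with the bases found in all 4 genes in capitals.
Id1: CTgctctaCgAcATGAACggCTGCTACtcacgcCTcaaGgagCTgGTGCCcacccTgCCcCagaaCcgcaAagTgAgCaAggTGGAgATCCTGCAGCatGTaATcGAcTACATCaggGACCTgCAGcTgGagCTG
Id2: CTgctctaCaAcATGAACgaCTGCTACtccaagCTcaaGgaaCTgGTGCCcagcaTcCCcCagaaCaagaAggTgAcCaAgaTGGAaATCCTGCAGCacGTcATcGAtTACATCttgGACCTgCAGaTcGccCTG
Id3: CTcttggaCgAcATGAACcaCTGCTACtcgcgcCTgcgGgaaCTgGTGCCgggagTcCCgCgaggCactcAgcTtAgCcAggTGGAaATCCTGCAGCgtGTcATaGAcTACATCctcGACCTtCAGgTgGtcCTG
Id4: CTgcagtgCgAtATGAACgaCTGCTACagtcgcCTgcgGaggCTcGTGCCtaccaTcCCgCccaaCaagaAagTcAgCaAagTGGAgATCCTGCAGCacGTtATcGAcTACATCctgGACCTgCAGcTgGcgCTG
The block lay within 1 exon of each gene, at chr2:152736512-152736646 on the plus strand for Id1, chr12:25095774-25095908 on the minus strand for Id2, chr4:136143996-136144130 on the plus strand for Id3 and chr13:48261687-48261821 on the plus strand for Id4. Of its 135 bases, 76 were the same in all 4 genes, and 24 of its 45 codons gave the same residue. Identity between pairs of genes ran from 69.6% to 80.7% of bases, with Id3 the most distant. Even so, the longest run of bases that transcripts of any pair shared was 19, against reads of 75 bases. The genes span chr2:152736251-152737410 (Id1), chr12:25093799-25097140 (Id2), chr4:136143497-136145755 (Id3) and chr13:48261228-48266026 (Id4). No other annotated gene overlaps Id1, Id2 or Id3. Id4 is overlapped on the opposite strand by A330033J07Rik and Gm49291, and since the strand setting of the counting is not given in the sources used here, reads of Id4 may include reads of these.

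Promoters from RefSeq were at hand for 3 of the 4 genes, Id2, Id3 and Id4, as 300 bases from 250 before the start of transcription to 50 after it. Those of Id2 (chr12:25096043-25096342, minus strand) and Id3 (chr4:136143572-136143871, plus strand), the genes with the opposite differences described below, are shown with each GGCGCC, a GC-rich word that Smad1 and Smad5 are known to bind, in capitals.
Id2: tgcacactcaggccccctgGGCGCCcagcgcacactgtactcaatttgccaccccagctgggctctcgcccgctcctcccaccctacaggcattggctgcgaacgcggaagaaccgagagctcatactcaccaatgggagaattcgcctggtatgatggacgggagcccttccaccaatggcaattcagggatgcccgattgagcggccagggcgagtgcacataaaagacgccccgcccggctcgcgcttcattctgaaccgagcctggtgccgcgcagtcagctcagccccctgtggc
Id3: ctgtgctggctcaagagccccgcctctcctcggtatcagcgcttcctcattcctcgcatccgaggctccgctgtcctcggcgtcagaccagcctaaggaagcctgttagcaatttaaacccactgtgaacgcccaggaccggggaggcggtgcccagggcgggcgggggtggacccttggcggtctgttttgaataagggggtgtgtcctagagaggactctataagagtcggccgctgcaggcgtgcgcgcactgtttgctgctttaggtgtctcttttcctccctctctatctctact
GGCGCC, which reads the same on both strands, occurred once in the Id2 window, at position -231 from the start, and once in that of Id4, at -148, but not in that of Id3. It occurred in 11.9% of 32851 promoter windows of the same length. The shorter Smad word GTCT, on either strand, occurred 1 time for Id2, 3 times for Id3 and not at all for Id4, and 88.0% of all windows held it. The Id2 and Id3 windows lie inside the annotated genes, some transcripts of which start further upstream, and a match describes letters in this window and no more.

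Reads were worked back from the table for each library, giving 26104317 reads on named genes for the cornea and 21182025 for the limbus. Normalized reads are reads divided by the size factor of the library, 1.03 for the cornea and 0.967 for the limbus. Ratios are limbus over cornea, with exact Clopper-Pearson 95% confidence intervals (CI) of the limbal share of the reads, and reads made by PCR without molecular identifiers are not independent molecules. The corneal keratin Krt12 was higher in the cornea (log2 ratio -2.19) and the limbal keratin Krt15 in the limbus (3.32), as the tissue labels name them. A gene counts as higher in a tissue when the ratio was at least 2-fold and its CI was on 1 side of 0 on the log2 scale. By this rule, 14.7% of the 13859 genes whose reads numbered over 3 in each library were higher in the limbus and 8.67% were higher in the cornea, and the median log2 ratio was -0.05. Scaled to total reads instead, all log2 ratios moved by 0.21 towards the limbus, and the shares were 17.3% and 5.37%.

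Compared to the cornea, the limbus had increased expression of Id1 and Id3 and decreased expression of Id2, and Id4 was not 2-fold apart. Thus 2 of the 4 genes were higher in the limbus, against 14.7% of all genes, and 1 of the 4 in the cornea, against 8.67%. In bulk tissue, fewer cells of a type and less RNA per cell cannot be told apart.

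Id3 had the largest difference of the family. It had 222 cornea reads and 2388 limbus reads, or 215 and 2469 normalized reads. The limbus was 11.5-fold higher (CI 10.01 to 13.2), a log2 ratio of 3.52 (CI 3.32 to 3.73). Of these 13859 genes, 277 (2.0%) had a higher ratio. Id1 had 662 cornea reads and 3783 limbus reads, or 640.4 and 3911 normalized reads. The limbus was 6.11-fold higher (CI 5.62 to 6.64), a log2 ratio of 2.61 (CI 2.49 to 2.73), and 697 genes (5.03%) had a higher ratio. The CIs of Id1 and Id3 did not overlap, so the pair shared a direction but not a size of difference.

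Id2 was the most abundant Id gene of the cornea and differed the other way. It had 7046 cornea reads and 2454 limbus reads, or 6816 and 2537 normalized reads. The cornea was 2.69-fold higher (CI 2.57 to 2.81), a log2 ratio of -1.43 (CI -1.49 to -1.36), and 499 genes (3.60%) had a lower ratio. Id4 had few reads in both tissues, with 202 cornea reads and 138 limbus reads, or 195 and 143 normalized reads. Its level was 1.37-fold higher in the cornea (CI 1.10 to 1.71), a log2 ratio of -0.45 (CI -0.78 to -0.13), short of 2-fold. Of all genes, 27.8% had a lower ratio than Id4, and scaled to total reads its CI spanned 0 (log2 ratio -0.25, CI -0.57 to 0.07).

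**Figure D1:**
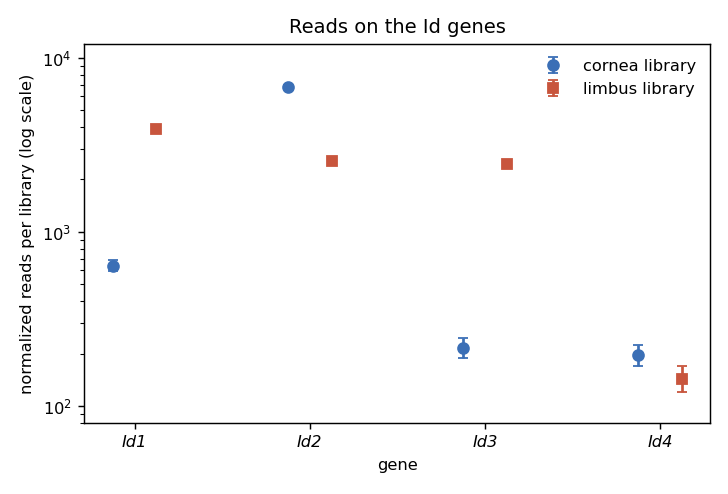
Normalized reads (log scale) of each Id gene in the cornea library (blue circles) and the limbus library (red squares), with bars for the exact 95% CI of counting error. Id1 and Id3 are higher in the limbus at 3911 and 2469 normalized reads, Id2 is higher in the cornea at 6816, and Id4 lies between 143 and 195 in both.

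**Figure D2:**
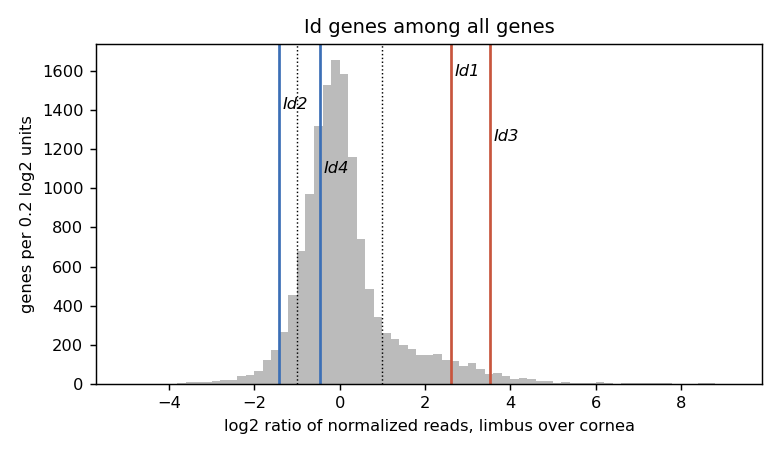
Histogram of the log2 ratio of limbus over cornea of 13859 genes with over 3 reads in each library, in steps of 0.2, with a line for each Id gene (red above 0, blue below 0) and dotted lines at 2-fold. Id3 (3.52) and Id1 (2.61) lie in the right tail, Id2 (-1.43) in the left tail, and Id4 (-0.45) within the main body.

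The make-up of the family differed between the tissues more than its sum. Normalized reads of the 4 genes added up to 7867 (cornea) and 9059 (limbus), a log2 ratio of 0.20 (CI 0.16 to 0.25), and of 0.41 when scaled to total reads. Counted per kilobase of exon, Id2 made up 79.5% of the family in the cornea and 17.9% in the limbus. Id1 made up 15.7% in the cornea and 57.9% in the limbus. Id3 went from 3.41% in the cornea to 23.7% in the limbus, and Id4 from 1.44% to 0.636%. Per kilobase, the cornea thus held mainly Id2, and the limbus mainly Id1 followed by Id3.

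**Figure D3:**
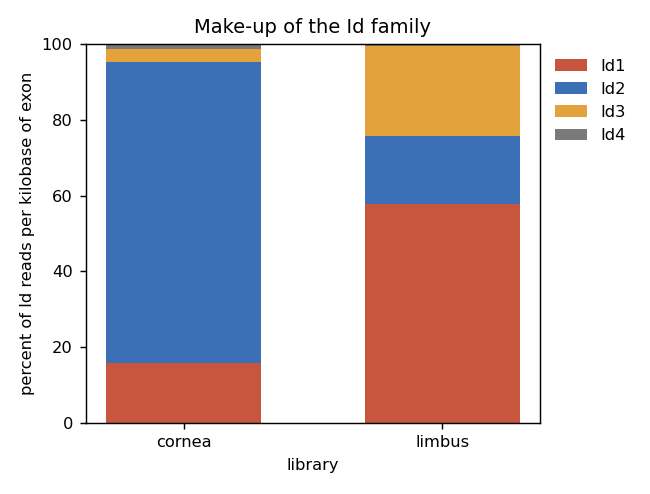
Stacked bars of the percent of Id reads per kilobase of merged exon taken by Id1, Id2, Id3 and Id4 in the cornea and the limbus library. Id2 takes 79.5% of the cornea bar and 17.9% of the limbus bar, and Id1 takes 15.7% and 57.9%.

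Ratios between family members within a library do not depend on the scaling of the libraries. In the cornea there were 0.0940 Id1 reads for each Id2 read, against 1.54 in the limbus, a 16.4-fold change (exact conditional CI 14.9 to 18.1). For each Id3 read the cornea had 31.7 Id2 reads and the limbus 1.03. The 2 genes higher in the limbus moved closer together, from 2.98 Id1 reads for each Id3 read in the cornea to 1.58 in the limbus. Id2 was lower relative to Id4 as well, with 34.9 Id2 reads for each Id4 read in the cornea against 17.8 in the limbus, or 0.510 of the corneal ratio (CI 0.406 to 0.641). The difference of Id2 was thus larger than that of Id4 in the same direction.

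On the scale of normalized reads per kilobase of exon, the order of levels in the cornea was Id2 (2796), Id1 (552), Id3 (119.9) and Id4 (50.8). In the limbus the order was Id1 (3371), Id3 (1378), Id2 (1041) and Id4 (37.1). No CI overlapped that of a neighbor in either order, but these CIs do not cover the choice of exon length. Before division by length, the limbus had 2454 Id2 reads and 2388 Id3 reads, so the limbal order of these genes rests on length. Among all genes ranked on the same scale, Id1 stood at percentile 88.5 of the cornea and 98.3 of the limbus, and Id3 at percentile 62.4 and 95.8. Id2 was at percentile 97.8 of the cornea and 94.3 of the limbus, so that it was an abundant transcript of both tissues. Id4 was below the middle of the ranking in both, at percentile 47.9 in the cornea and 42.4 in the limbus.

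Genes of the BMP pathway that act before the Id genes were examined in the order of their roles. Of 13 BMP ligands, 6 had enough reads, that is over 3 in each library, with a median log2 ratio of 0.02. Of the 6, 1 was higher in the limbus, against 14.7% of all genes, and 1 in the cornea, against 8.67%. A median over a whole list sets a library at or under 3 reads to 3 reads and a gene low in both libraries to 0, and was 0 here. Bmp2 had 12 cornea reads and 56 limbus reads (log2 ratio 2.32, CI 1.40 to 3.35). Bmp6 had 116 and 43 (log2 ratio -1.34, CI -1.88 to -0.82). Bmp4, chosen for its values, had 3 cornea reads and 116 limbus reads, a 41.3-fold ratio with a counting interval of 13.8 to 203. The ligands thus did not share a direction, and 1 gene of 6 each way does not set them apart from all genes.

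Among 8 receptors and coreceptors, 7 had enough reads. Of the 7, 2 were higher in the limbus, against 14.7% of all genes, and none in the cornea, against 8.67%. The CIs of 4 of the 7 lay wholly below 0, short of 2-fold, and that of 1 spanned 0. The share of all genes with a CI below 0 was not counted. One of the 4, Acvr1, chosen for its values (-0.24, CI -0.42 to -0.06), spans 0 under the 0.21 shift of scaling to total reads. Over the 7 the median log2 ratio was -0.24. It turned to 0.12 over the whole list through 1 added gene, with 0 cornea reads and 4 limbus reads. The 2 higher in the limbus were Acvrl1, a BMP receptor of endothelial cells, and its coreceptor Eng. Acvrl1 had 34 cornea reads and 418 limbus reads (log2 ratio 3.72, CI 3.21 to 4.27), and Eng had 76 and 821 (3.53, CI 3.19 to 3.89). Of the 4 BMP Smads, which carry the signal to the nucleus, 3 had enough reads. None of the 3 was past 2-fold in either direction, with a range of -0.49 to 0.57 on the log2 scale. Smad9, chosen for its values, had 1 cornea read and 15 limbus reads, a 16.03-fold ratio with a counting interval of 2.47 to 675. The median log2 ratio was -0.38 over the 3 and turned to 0.10 over the whole list through Smad9 alone.

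BMP antagonists are secreted proteins or decoys that keep ligands from receptors, and 9 of 13 listed had enough reads. Of the 9, 6 were higher in the limbus, against 14.7% of all genes, and none in the cornea, against 8.67%. The median log2 ratio of the 9 was 2.21, and 2.01 over the whole list, against -0.05 over all genes. The other 3 of the 9 were within 2-fold. Normalized reads of the list added up to 3772 (cornea) and 5812 (limbus). Most of these were of Twsg1, chosen for its values, at 2991 and 3077 (log2 ratio 0.04, CI -0.03 to 0.11). Nbl1 had 158 cornea reads and 1488 limbus reads (log2 ratio 3.33, CI 3.09 to 3.58). Sostdc1 had 16 and 100 (2.74, CI 1.97 to 3.60), few reads in the cornea and a correspondingly wide CI.

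Of 6 other genes known as BMP targets, 4 had enough reads, and 2 of the 4 were higher in the limbus, against 14.7% of all genes. The median log2 ratio was 1.04 over the 4, and 2.59 over the whole list. The feedback inhibitors Smad6 and Smad7, named after their values were seen, were within 2-fold at log2 ratios of 0.28 (CI 0.04 to 0.52) and 0.49 (CI 0.18 to 0.81). Hey1, a bHLH repressor also known as a Notch target, had 4 cornea reads and 45 limbus reads (3.59, CI 2.13 to 5.52). Msx2, a homeobox gene, had 22 and 62 (1.59, CI 0.87 to 2.36). Msx1 and Atoh8 were chosen after their values were seen. Msx1 had no cornea reads and 41 limbus reads, at least 14.6-fold higher with the cornea library set to 3 reads, the limit that a count of 0 allows. Atoh8 had 2 and 157 reads, an 83.9-fold ratio with a counting interval of 22.8 to 699. The known targets thus included genes with differences as large as that of Id3 or larger, resting on 4 cornea reads or fewer. Smad6 and Smad7 leaned the same way within 2-fold, and all 4 targets with enough reads had a CI above 0. The share of all genes with a CI above 0 was not counted, so that number does not set the targets apart.

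**Figure D4:**
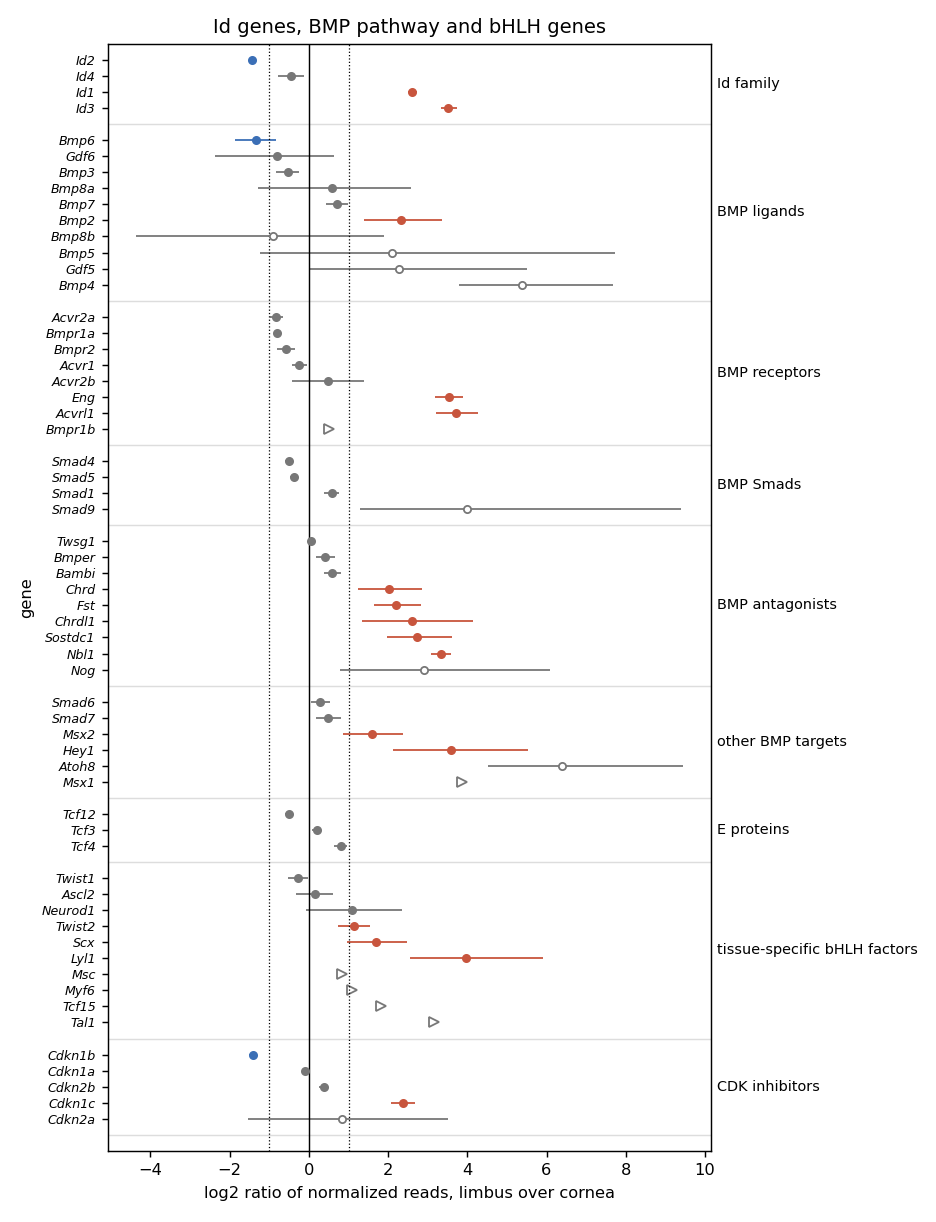
Log2 ratio of limbus over cornea for the Id genes and the fixed lists of BMP pathway, E protein, bHLH and CDK inhibitor genes, with bars for the exact 95% CI (red, higher in the limbus; blue, higher in the cornea; gray, neither; open circles, 1 to 3 reads in 1 library; triangles, lower bounds where the cornea had 0 reads). Id1 and Id3 lie to the right with Acvrl1, Eng, Nbl1 and Sostdc1, while the E proteins lie within 2-fold.

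The E proteins, the partners that Id proteins bind, were within 2-fold in all 3 genes. Tcf3 had 1084 cornea reads and 1160 limbus reads (log2 ratio 0.19, CI 0.07 to 0.31). Tcf4 had 509 and 828 (0.80, CI 0.64 to 0.96), and scaled to total reads it was past 2-fold in the limbus. Tcf12 had 2180 and 1433 (-0.51, CI -0.61 to -0.41), although 11 annotated genes overlap it. Tcf4 is overlapped by 1 annotated gene, the rRNA gene Gm24845 on the same strand. Normalized reads of the 3 genes added up to 3650 (cornea) and 3536 (limbus), a sum in which Tcf4 and Tcf12 differed in opposite directions.

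Tissue-specific bHLH factors, which need an E protein as partner, had few reads. Of 21 listed, 6 had a mean of 0, 5 had 3 reads or fewer in both libraries and 4 in the cornea alone. Of the 6 with enough reads, 3 were higher in the limbus, against 14.7% of all genes, whereas none was in the cornea, against 8.67%. Neurod1, chosen for its values, was past 2-fold with a CI that spanned 0 (1.10, CI -0.07 to 2.35), and scaled to total reads its CI was above 0. Lyl1, a factor of blood and endothelial cells, had 4 cornea reads and 59 limbus reads (log2 ratio 3.98, CI 2.55 to 5.90). Scx, a tendon factor, had 21 and 64 (1.70, CI 0.97 to 2.49), and the mesenchymal factor Twist2 had 78 and 161 (1.14, CI 0.74 to 1.55). The median log2 ratio of the 6 was 1.12, and 0 over the whole list.

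Of 5 CDK inhibitors, brakes of the cell cycle, some of which E proteins are known to switch on, 4 had enough reads. Cdkn1c was higher in the limbus, with 118 cornea reads and 572 limbus reads (log2 ratio 2.37, CI 2.08 to 2.67). Cdkn1b was higher in the cornea, with 3155 and 1105 (-1.42, CI -1.52 to -1.32). The median log2 ratio was 0.14 over the 4 and 0.37 over the whole list. Thus 1 of the 4 was higher in the limbus, against 14.7% of all genes, and 1 in the cornea, against 8.67%. So few genes do not set the list apart from all genes.

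For each Id gene, the 2 genes with the closest log2 ratio were found among 72 genes of the other lists with a mean of at least 50 normalized reads. For Id3 these were the endothelial coreceptor Eng (3.53) and Ptgds (3.49), and those of Id1 included the basal keratin Krt14 (2.52). For Id2 they were Cdkn1b (-1.42) and Bmp6 (-1.34), and for Id4 Smad4 (-0.49) and Krt5 (-0.41). Likeness here rests on 1 ratio between 2 libraries and not on a pattern over samples.

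Markers of several cell types moved with Id1 and Id3. Of 8 markers of blood vessel endothelium, 3 of the 4 with enough reads were higher in the limbus, against 14.7% of all genes. The summed level of the 8 was 235 normalized reads (cornea) and 3178 (limbus). Pecam1 had 6 cornea reads and 831 limbus reads (log2 ratio 7.21, CI 6.08 to 8.66). Flt1, named after its values were seen, had no cornea reads and 225 limbus reads, at least 80.1-fold higher with the cornea set to 3 reads. It was the only listed marker without reads in a library. Vwf (4.55) and Tie1 (3.66) were also higher in the limbus, while Kdr, named after its values were seen, was within 2-fold with 170 cornea reads and 278 limbus reads (0.81), and past 2-fold when scaled to total reads (1.011). Kdr held most of the corneal sum, and the other 7 markers added up to 70.6 normalized reads (cornea) and 2890.4 (limbus).

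All 5 markers of smooth muscle and pericytes were higher in the limbus, with a summed level of 344 and 2944 normalized reads. Each count of this paragraph stands against 14.7% of all genes higher in the limbus. All 5 melanocyte markers (306 and 1644) and all 5 skeletal muscle markers (33.9 and 8888) were higher in the limbus too. So were 3 of 4 Schwann cell markers with enough reads, of 5 listed, and 4 of 5 leukocyte markers (1122 and 6253). Nearly all Schwann marker reads were of Mbp, named after its values were seen, which was within 2-fold (4193 and 5680.4), and the other 4 added up to 59.98 and 1380.1. All 5 markers of limbal and conjunctival epithelium were higher in the limbus, at 83956 and 651646. The part of these cells in the differences of Id1 and Id3 was not tested.

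Markers of the cornea proper moved with Id2 in part. Of 4 corneal epithelium markers, Krt12 (log2 ratio -2.19) and Aldh3a1 (-1.22) were higher in the cornea and none in the limbus, with a median of -0.96. Among all genes, 8.67% were higher in the cornea and 14.7% in the limbus. Of 4 keratocyte markers, Kera (-2.99) was higher in the cornea and Ptgds (3.49) in the limbus, and the summed level was 49905 and 57948, or 20098 and 11602 without Dcn, the marker with the most reads. Of 2 corneal endothelium markers, Col8a2 (1.81) was higher in the limbus. The part of these cells in the difference of Id2 was not tested.

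**Figure D5:**
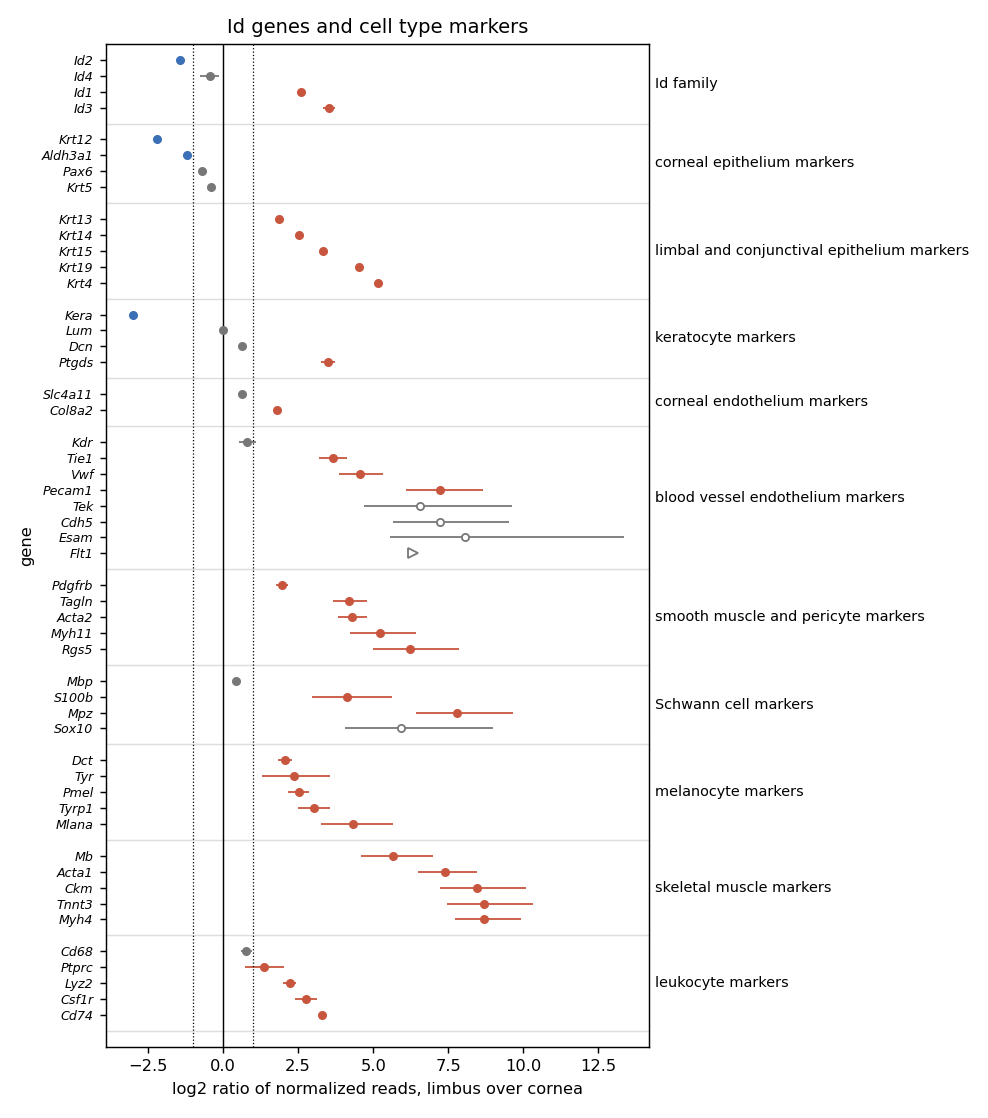
Log2 ratio of limbus over cornea for the Id genes and for cell type markers, drawn as in the plot of BMP pathway genes (bars, exact 95% CI; open circles, 1 to 3 reads in 1 library; triangle, lower bound for Flt1 with 0 reads in the cornea). Markers of vessels, smooth muscle, melanocytes, skeletal muscle and limbal epithelium lie to the right with Id1 and Id3, and Krt12, Aldh3a1 and Kera to the left with Id2.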

How the data were processed

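RNA of 16 pooled mouse eyes was used for stranded total RNA libraries, sequenced as paired reads of 75 bases. With CLC Genomics Workbench 20 the authors mapped them to GRCm38 (mm10), and they named trimmed mean of M-values normalization. The authors deposited, for each gene, a mean normalized signal over both tissues. The log2 fold change and its standard error that the authors deposited were used only to tell apart read pairs giving the same mean. The p-value columns were not used.

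Each mean is built from whole reads of 1 cornea and 1 limbus library, 109 cornea reads being worth 102 limbus reads. It allowed 1 pair of read numbers for 6143 of 17442 genes and several for 11299, of which 11295 were met to within 0.01 read or 1e-05 of the mean. For Id1, Id2, Id3 and Id4, the chosen pairs lay within 0.00648 reads of the numbers that the deposited mean, fold change and error give, and the second-best pairs at 17.6 reads or more. Tested on data simulated with the same model and size factors, reads of 17062 of 17062 genes were found. That simulation checks the solving step and cannot tell whether the deposited values came from this model. Read numbers are thus derived values. Of 40904 rows, 17484 without a gene name were left out. Rows were matched by symbol, since the accession beside it named the same gene for 2 of 18556.

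The design fixed intervals in place of a test across replicates, and the libraries were also scaled in 2 other ways, to total reads and by a trimmed mean. The Id genes and lists were chosen with earlier results of these data known. Named genes are the Id genes, up to 3 genes per list and direction with the largest ratios past 2-fold, the 3 E proteins, and the closest genes. The values of 2 listed genes are not reported here and not drawn, though list counts include them. Exon lengths and positions are from the GENCODE annotation of GRCm38, and promoters from RefSeq (GRCm38). Python 3.11.15, numpy 2.4.6, scipy 1.17.1, pandas 2.3.3 and matplotlib 3.10.9 were used.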

Additional observations from a re-analysis of the deposited data

How the results depend on the processing

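Id1, Id2 and Id3 kept their direction and stayed past 2-fold under each scaling, and Id4 kept its direction. Scaled to total reads, the log2 ratio was 2.82 for Id1, -1.22 for Id2 and 3.73 for Id3, moved by the 0.21 that all genes share, and 1 E protein (Tcf4), 1 bHLH factor (Neurod1) and 1 vessel marker (Kdr) became higher in the limbus, which took the bHLH factors and the vessel markers from 3 to 4 each. With the second-best pair of read numbers, which the deposited fold change and standard error do not allow, the log2 ratio was 5.29 for Id1, -10.56 for Id2, 4.56 for Id3 and -3.02 for Id4, since the same mean was then split otherwise. The share of all genes higher in the cornea was 5.37% scaled to total reads. That setting for this share, sums of markers without the marker with the most reads, and the trimmed mean for the number of Id genes past 2-fold, were chosen after seeing the data. A pseudocount of 1 normalized read and a trimmed mean of M-values changed no direction and no count for the Id genes and the lists. A 1.5-fold threshold was run for the number of Id genes alone and left it at 2 and 1. Means of at least 10 or 50 were run for the shares of all genes alone, which ranged from 11.4% to 15.02% for the limbus and from 8.61% to 8.90% for the cornea. The longest transcript was run for the shares of the family per length alone, where that of Id1 in the limbus was 50.9%. No paired analysis was possible because no numbered sample has a value of its own in the table, and no replicate could be left out for the same reason. With 1 library per tissue, a difference between libraries cannot be told apart from a difference between tissues.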
